A study of Mus musculus with 2 samples.

Results

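The miR-30 family is a group of microRNA genes with related names, known for products with a common seed, the bases that pair with target messenger RNAs. Its members, chosen by name, were the rows of the 2 quantification tables whose gene identifiers carry the names Mir30a, Mir30b, Mir30c-1, Mir30c-2, Mir30d, Mir30e and Mir30f in the GENCODE M21 annotation, which gave 7 of 2202 microRNA genes. Of these, 6 reached 10 reads in each library, as did 335 of the 2202 genes. MicroRNAs were sequenced from RNA of under 30 bases from the heart of female B6CASTF1/J mice, an F1 hybrid, aged 14 days. There was 1 group of 2 biological replicates and no treatment, mutation or other condition, so levels and the difference between the libraries are described. The biosample text speaks of 3 females for replicate 1 but of 1 female for replicate 2, without saying whether animals were pooled. Another label gives the age in months, and the age field, in days, was used.

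A microRNA gene is transcribed as a long primary RNA from which a hairpin is cut, and the hairpin yields a 5p arm and a 3p arm, of which one is usually retained to guide repression of messenger RNAs. Target choice rests mostly on the seed, bases 2 to 8 of the mature microRNA. In the heart, miR-30 is known, together with miR-133, for repressing connective tissue growth factor, a driver of matrix deposition, and in other cells miR-30a is known to repress the autophagy gene Beclin 1.

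The mature sequences are shown to set the seeds of the named genes side by side and because the bases after the seed decide whether a read can be assigned to 1 gene. RefSeq microRNA entries of build GRCm38.p6 matched 5 of the 7 genes; Mir30b and Mir30d are given by name only. In the following 5p sequences, written 5′ to 3′, capitals mark the letters GUAAACA.
miR-30a-5p: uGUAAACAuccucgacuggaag
miR-30e-5p: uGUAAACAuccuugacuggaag
miR-30c-5p: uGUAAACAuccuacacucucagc
miR-30f: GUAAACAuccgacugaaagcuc
miR-384-5p: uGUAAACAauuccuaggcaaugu

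Among 1738 mature entries, which hold none for Mir30b or Mir30d, 5 had GUAAACA at bases 2 to 8. They were those of Mir30a, Mir30c-1, Mir30c-2, Mir30e and, outside the family by name, Mir384. In miR-30f the same letters stood at bases 1 to 7, so that its own seed was UAAACAU. The arms miR-30a-5p and miR-30e-5p differed at 1 of 22 positions (C13U, miR-30a base first, counted from the 5′ end), and each differed from miR-30c-5p at 5 of 22. Against miR-384-5p, miR-30a-5p differed at 10 of 22 positions.

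The 3p arms of Mir30a, Mir30e, Mir30c-1 and Mir30c-2 fell into a pair of seed groups. Mir30b and Mir30d have no entry, so their 3p arms are not covered. The following 3p sequences have their own seed, bases 2 to 8, in capitals.
miR-30a-3p: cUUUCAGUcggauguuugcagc
miR-30e-3p: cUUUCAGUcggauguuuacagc
miR-30c-1-3p: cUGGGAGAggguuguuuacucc
miR-30c-2-3p: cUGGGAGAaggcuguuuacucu

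Among the 1738 entries no other carried the seed UUUCAGU of miR-30a-3p and miR-30e-3p, but arms of Mir30b and Mir30d could not be compared. The arms miR-30a-3p and miR-30e-3p differed from each other at 1 of 22 positions (G18A, miR-30a base first). The 3p arms of Mir30c-1 and Mir30c-2 differed from each other at 3 of 22 positions. The deposited counts are per hairpin gene, so reads of a 5p and a 3p arm of the same gene were not separated.

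Both Mir30c genes encode the same miR-30c-5p, and this bears on their counts because a read that maps to several places was counted for no gene. Their hairpins are shown with the longest stretch that they share, 28 bases, in capitals; in both it begins with the first base of miR-30c-5p and runs 5 bases past its last base.
Mir30c-1: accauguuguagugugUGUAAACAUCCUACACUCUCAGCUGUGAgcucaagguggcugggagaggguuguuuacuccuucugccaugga
Mir30c-2: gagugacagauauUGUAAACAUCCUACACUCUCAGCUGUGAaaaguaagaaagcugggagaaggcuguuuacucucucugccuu

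A read that lies within the capitals cannot be placed at one of the 2 genes, so their levels below are those of uniquely placed reads and are uncertain by an unknown amount. Over all 1005 hairpins of the table, Mir30c-1 and Mir30c-2 shared 20 bases or more with each other alone, and Mir30a and Mir30e with none. The longest stretch common to Mir30a and Mir30e was 18 bases, and outside the family no hairpin of the table shared more than 11 bases with any of these 4. Mir30b and Mir30d were not among the 1005 hairpins, so stretches shared with them were not examined. Places in the genome outside these hairpins were not searched.

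Replicate 1 held 12701590 reads and replicate 2 held 7126319, of which 5237062 and 3026501 were assigned to a microRNA gene on its own strand. Another 41.1% and 39.9% of all reads mapped to several places. Levels are given as counts per 1000000 own-strand reads (CPM), each with an exact 95% Clopper-Pearson interval. These intervals, and the limits given for a count of 0, cover counting error only, because reads that carry no molecular identifier may be copies of 1 molecule. Where no read was counted, a fixed limit of 3 reads was used, which is 0.573 CPM in replicate 1 and 0.991 CPM in replicate 2. The sequenced RNA was under 30 bases, so CPM was not scaled by length; divided by the annotated gene length, the order of the genes was the same. As a check of the tissue, 5 of 9 cardiomyocyte genes reached 10 reads in each library. None was at 0 in both libraries, though Mir1b had 10 reads in replicate 1 and 0 in replicate 2. The list took 0.520% of counted reads in replicate 1 and 0.346% in replicate 2. Its Mir1 and Mir133 genes have near-identical copies, so their unique reads can fall short of their true level. The smooth muscle list took 3.03% and 3.39%, the endothelial Mir126a 4.29% and 6.40%, the leukocyte list 0.385% and 0.415%, and the epithelial list 0.0686% and 0.0383%. The erythroid list took 0.102% in replicate 1 and 0.739% in replicate 2, the liver Mir122 0.00559% and 0.00704%, and the skeletal muscle Mir206 0.000783% and 0.00205%. The erythroid genes did not all differ in the same direction. Mir451a (234 and 6393 CPM) and Mir144 (103 and 579 CPM) were lower in replicate 1. Mir486 (658 and 410 CPM) and Mir3107 (21.6 and 11.9 CPM) were higher in replicate 1. No gene of these lists was at 0 in both libraries, and their part in the differences between the libraries was not tested. In a whole tissue, fewer cells of a type and less RNA per cell cannot be told apart.

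The 7 genes together took about the same share of both libraries when levels were scaled by total counts. They held 156074 reads in replicate 1, or 2.98% of counted reads (2.97 to 2.99), and 92460 reads in replicate 2, or 3.06% (3.04 to 3.07). The mean share was 3.02% ± 0.0529 (SD, n = 2), against 3.02% ± 0.252 with TMM-scaled library sizes and 3.03% ± 0.125 with DESeq2 size factors, which set the libraries further apart. Mir30d alone supplied 60.3% of these reads in replicate 1 and 58.7% in replicate 2, Mir30a 24.6% and 24.1%, and Mir30e 11.2% and 13.0%. The weakest detected member, Mir30b, supplied 0.581% and 0.722%, and Mir30f none.

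**Figure D1:**
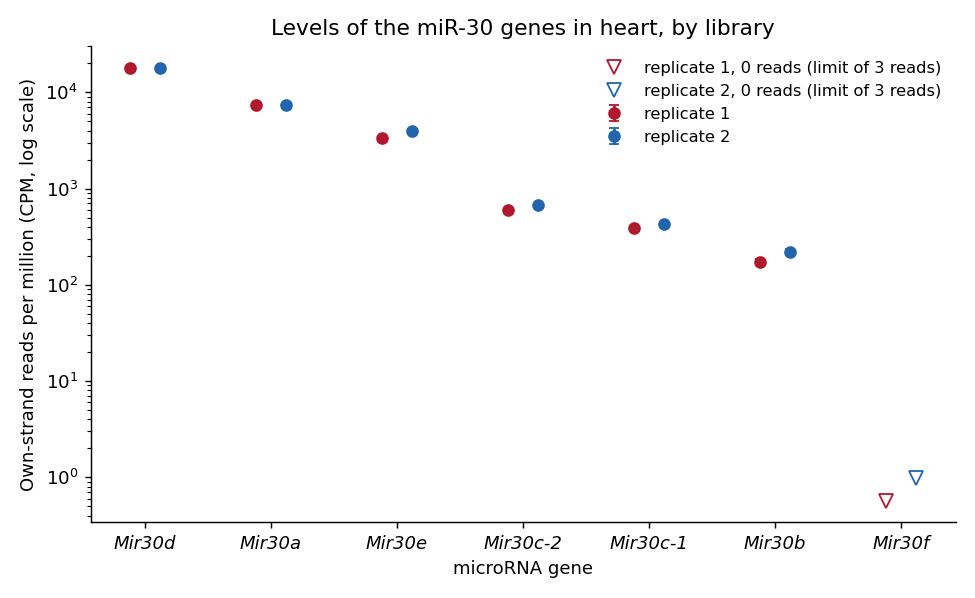
Level of each miR-30 gene (CPM on a log axis) in replicate 1 and replicate 2. Filled points are measured levels with exact 95% counting intervals, which are mostly smaller than the points, and open triangles are the limit of 3 reads where no read was counted. The genes keep the same order in both libraries, from Mir30d at 17969.8 and 17930.3 CPM down to Mir30b at 173 and 221 CPM, with Mir30f at 0.

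The chromosome 15 locus held both the strongest and the weakest detected gene. Mir30d (ENSMUSG00000065437.1, mm10 chromosome 15, 68341208 to 68341289, minus strand) lies wholly within an annotated exon of the long intergenic noncoding RNA gene Gm20732 on the same strand. It stood at 17969.8 CPM (17856 to 18084) in replicate 1 and 17930.3 CPM (17781 to 18080.4) in replicate 2, from 94109 and 54266 reads. That placed it 14th and 12th among all genes, and its counting intervals in the 2 libraries overlapped. Mir30b (ENSMUSG00000065476.2, chromosome 15, 68337415 to 68337510, minus strand) follows it by 3697 bases along the strand and has 16 bases in an exon of the noncoding gene Gm26621. Mir30b stood at 173 CPM (162 to 185) in replicate 1 and 221 CPM (204 to 238) in replicate 2, from 907 and 668 reads. Its intervals in the 2 libraries did not overlap. Within a library Mir30d exceeded Mir30b 104-fold in replicate 1 and 81.2-fold in replicate 2.

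The chromosome 1 locus came next. Mir30a (ENSMUSG00000065405.3, chromosome 1, 23272269 to 23272339, plus strand) overlaps no other annotated gene in GENCODE M21. It stood at 7333 CPM (7259.8 to 7406) in replicate 1 and 7349 CPM (7253 to 7446) in replicate 2, from 38402 and 22242 reads, ranks 20 and 19. Mir30c-2 (ENSMUSG00000065567.1, chromosome 1, 23291701 to 23291784, plus strand) lies 19361 bases further along the strand, wholly in an exon of the noncoding gene Gm27028. It stood at 604 CPM (583 to 626) in replicate 1 and 668 CPM (639 to 698) in replicate 2, from 3164 and 2021 reads. The pair differed 12.1-fold and 11.0-fold within a library.

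At chromosome 4 both detected genes lie in introns of Nfyc, which encodes a subunit of the transcription factor NF-Y, on its strand. Mir30e (ENSMUSG00000065409.1, chromosome 4, 120772606 to 120772697, minus strand) stood at 3335 CPM (3286 to 3385) in replicate 1 and 3956 CPM (3886 to 4028) in replicate 2, from 17465 and 11974 reads. Mir30c-1 (ENSMUSG00000065490.1, chromosome 4, 120769534 to 120769622, minus strand) follows by 2983 bases and stood at 387 CPM (370.4 to 404) and 426 CPM (403 to 449.8), from 2027 and 1289 reads. Both genes were lower in replicate 1, though the intervals of Mir30c-1 overlapped slightly. Mir30e exceeded Mir30c-1 by 8.62-fold in replicate 1 and 9.29-fold in replicate 2.

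**Figure D2:**
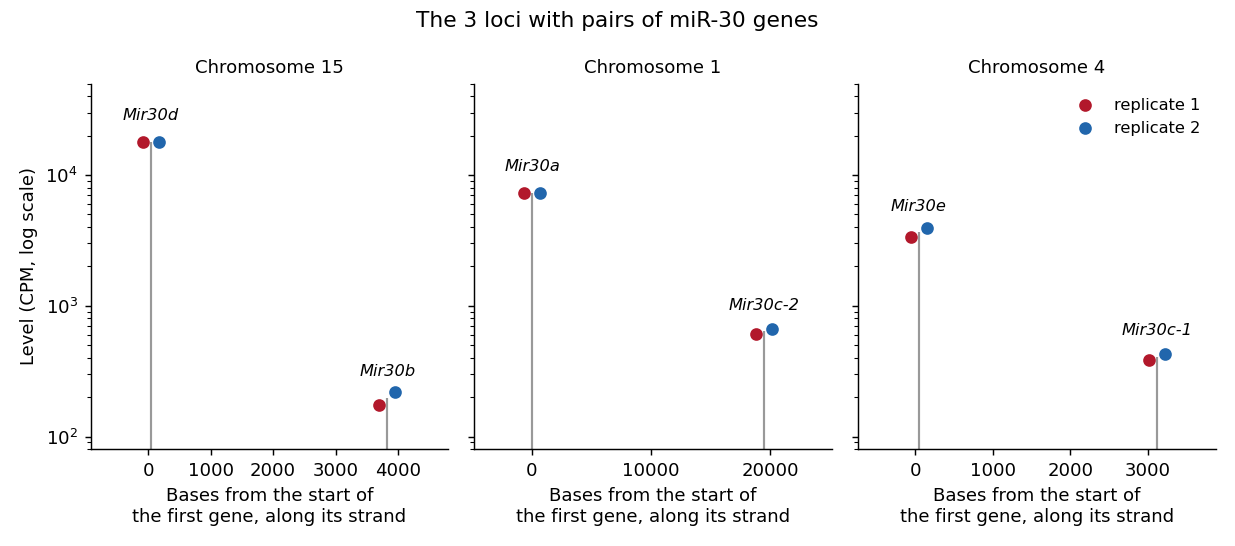
Level (CPM on a log axis) of the genes of each locus against the distance in bases from the start of the first gene along its strand, one panel per chromosome. Red points are replicate 1 and blue points replicate 2, set slightly left and right of a grey line at the gene's position. In each panel the gene that comes first along the strand is the stronger, by 104-fold and 81.2-fold at chromosome 15, 12.1-fold and 11.0-fold at chromosome 1 and 8.62-fold and 9.29-fold at chromosome 4.

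In all 3 loci the gene placed first along the strand had the higher level, and the size of the step differed between loci. The log2 ratio was 6.52 ± 0.25 for Mir30d over Mir30b, 3.53 ± 0.10 for Mir30a over Mir30c-2 and 3.16 ± 0.077 for Mir30e over Mir30c-1 (SD, n = 2 each). The values of the libraries for these 3 ratios did not overlap. Between the libraries the ratio Mir30d over Mir30b differed by 0.35 on the log2 scale, with intervals of 6.60 to 6.79 in replicate 1 and 6.23 to 6.46 in replicate 2. In the chromosome 1 and chromosome 4 pairs the weaker gene is a Mir30c copy, so those ratios rest in part on reads that may have been lost to several-place mapping. How far the lost reads lower these counts was not tested. Stretches shared by Mir30d or Mir30b were not examined, so such a loss is unknown for their ratio too. Summed over each locus, chromosome 15 gave 60.1% ± 1.036 of the family's reads, chromosome 1 gave 26.4% ± 0.276 and chromosome 4 gave 13.4% ± 1.31 (SD, n = 2).

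The 6 detected genes kept 1 order in both libraries, Mir30d, Mir30a, Mir30e, Mir30c-2, Mir30c-1 and Mir30b. Mir30d exceeded Mir30a by 2.45-fold in replicate 1 and 2.44-fold in replicate 2, the most even of the 5 steps together with that of Mir30c-2 over Mir30c-1 (1.56-fold and 1.57-fold). The step of Mir30a over Mir30e was 2.20-fold and 1.86-fold, that of Mir30e over Mir30c-2 was 5.52-fold and 5.92-fold, and that of Mir30c-1 over Mir30b was 2.23-fold and 1.93-fold. No neighbours had overlapping values over the 2 libraries. The places of Mir30c-2 and Mir30c-1 are those of their uniquely placed reads, and what was lost to several-place mapping is unknown in both libraries. With 2 libraries per gene, an exact two-sided permutation test cannot give a p below 0.333, so the order is a description.

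Mir30f shares its whole annotated interval with Mir30e on the opposite strand, and no read was counted for it. Mir30f (ENSMUSG00000105585.1, chromosome 4, 120772606 to 120772697, plus strand) had 0 own-strand reads in both libraries, against 17465 and 11974 on the strand of Mir30e. Set against the limit of 3 reads per library, Mir30e was at least 5822-fold higher than Mir30f in replicate 1 and at least 3991-fold higher in replicate 2. The hairpin of Mir30e is shown with the 22 bases opposite miR-30f in capitals, of which 19 also belong to miR-30e-3p.
Mir30e: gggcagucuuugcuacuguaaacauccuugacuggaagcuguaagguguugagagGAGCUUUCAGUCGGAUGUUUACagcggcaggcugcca

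The other columns of the tables show how strand enters these counts. In the column of opposite-strand reads, Mir30f had 17465 and 11974 reads, the same numbers as Mir30e on its own strand, and the other 6 genes had 0. In the unstranded column both genes had 0 reads, and 1355980 and 844614 reads of the libraries were set aside there as ambiguous between genes. The counts of the other 5 detected genes were the same with and without strand.

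**Figure D3:**
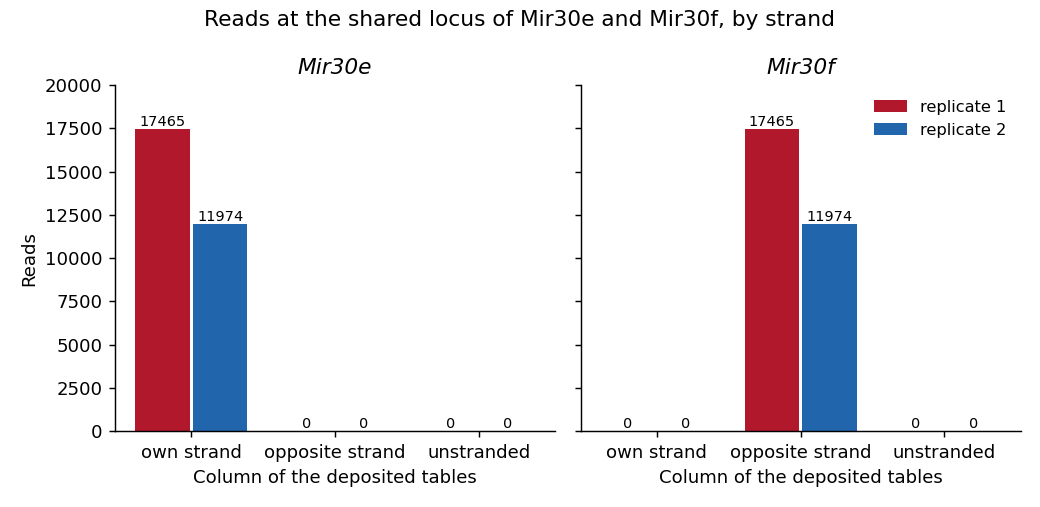
Reads assigned to Mir30e and Mir30f in the own-strand, opposite-strand and unstranded columns, with replicate 1 in red and replicate 2 in blue. The own-strand bars of Mir30e and the opposite-strand bars of Mir30f have equal heights of 17465 and 11974 reads, and all other bars are at 0.

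Between the libraries the miR-30 genes differed by little. By the exact two-sided binomial test with Benjamini-Hochberg adjustment over the 430 genes that reached 10 reads in sum, 4 of 6 tested genes were lower in replicate 1 and none was higher. Over all genes 55.8% were called, 22.3% lower and 33.5% higher in replicate 1. The test compares these 2 libraries on counting error alone. Mir30b differed most, by a log2 difference of -0.35 (counting interval -0.50 to -0.20, adjusted p = 7.63e-06, exact binomial test). Mir30e followed at -0.25 (-0.28 to -0.21, adjusted p = 1.17e-45). Mir30c-2 stood at -0.14 (-0.23 to -0.063) and Mir30c-1 at -0.14 (-0.24 to -0.036), with adjusted p of 0.00118 and 0.0155. The log2 difference of Mir30d was 0.0032 (-0.012 to 0.018, adjusted p = 0.814) and that of Mir30a was -0.0032 (-0.027 to 0.021, adjusted p = 0.881). No miR-30 gene differed by over 1.5-fold, where 43.7% of the genes tested did. Those include genes with few reads. Of the 263 genes with at least 100 reads in sum, as all 6 had, 93 did.

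The median log2 difference of the 6 genes was -0.14, beside 0.08 over all 430 genes, and the median size of the difference was 1.10-fold beside 1.42-fold. Among the 226 genes that averaged 100 reads or more, whose median difference was 1.33-fold, Mir30d had the smallest difference and Mir30a the second smallest. The other 4 ranked 44th for Mir30c-1, 47th for Mir30c-2, 74th for Mir30e and 100th for Mir30b, counted from the smallest. With library sizes scaled by TMM every log2 difference moved by -0.13. Mir30d then stood at -0.13 and Mir30a at -0.14, both were called, and all 6 genes were lower in replicate 1, where the same scaling called 55.3% of all 430 genes, 27.4% lower and 27.9% higher. When a spread between animals was assumed, with edgeR's exact test and a fixed coefficient of variation of 0.1, 0 of the 6 genes were called, and 0 had an unadjusted p under 0.05. Of all 430 genes that test called 28.8%, with 8.84% lower and 20.0% higher in replicate 1, and 38.4% had an unadjusted p under 0.05.

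**Figure D4:**
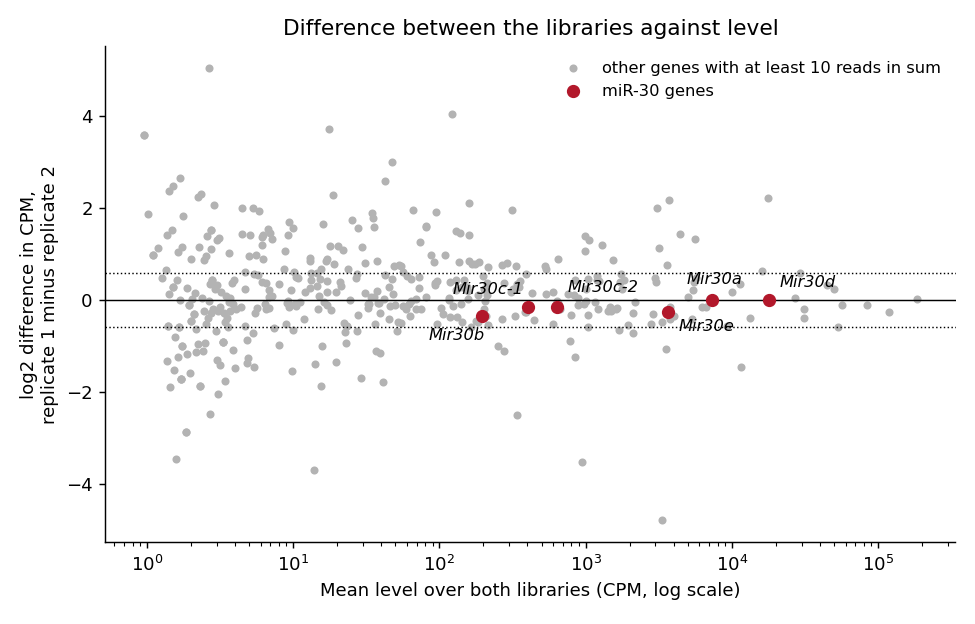
Log2 difference in CPM, replicate 1 minus replicate 2, against the mean level (CPM on a log axis) for the 430 genes that reached 10 reads in sum. Red points are the 6 detected miR-30 genes, grey points all other genes, and dotted lines mark a difference of 1.5-fold. All 6 lie between the dotted lines, Mir30d and Mir30a almost on the line of no difference, while 43.7% of the genes tested lie outside. Of the 263 genes with at least 100 reads in sum, 93 lie outside.

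Mir384, the gene outside the family with the same seed (ENSMUSG00000065499.1, chromosome X, 105344282 to 105344369, minus strand), was close to the limit of detection. It had 14 reads in replicate 1, or 2.67 CPM (1.46 to 4.49), and 9 reads in replicate 2, or 2.97 CPM (1.36 to 5.65). The intervals overlap widely. Its share of counted reads was 0.000267% in replicate 1 and 0.000297% in replicate 2, beside 2.98% and 3.06% for the miR-30 genes.

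A list of other microRNAs linked to connective tissue growth factor and fibrosis holds the 3 Mir133 genes, the 4 Mir29 genes, whose products repress collagens, and Mir21a, which is known to rise in fibrosis. It took 0.599% of counted reads in replicate 1 and 0.204% in replicate 2. Of 7 genes tested, 3 were higher and 1 was lower in replicate 1 by the same test, with a median log2 difference of -0.19. That count, 4 of 7, is close to the 55.8% called over all genes and shows nothing particular to the list. Mir21a was higher, at 4926 CPM in replicate 1 and 1225 CPM in replicate 2 (log2 2.01), and Mir29a at 979 and 724 CPM (log2 0.44). Mir29b-1 was higher at 19.3 and 11.9 CPM (log2 0.68), and Mir29b-2 was lower at 2.86 and 7.93 CPM (log2 -1.45). Mir29c stood at 55.8 and 63.4 CPM, Mir133a-1 had 16 and 12 reads and Mir133b 6 and 5, none of them called, and Mir133a-2, with 7 and 1 reads, was not tested. The Mir133 copies and the Mir29b copies are near-identical, so their unique reads are uncertain as well.

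The genes outside the family with the most similar values were found by the distance of log2(CPM + 1) over the 2 libraries, a measure of level and not of function. For Mir30d it was Mir26b at 19661 and 12708 CPM, a distance of 0.51, the largest of the 6. Mir151 was nearest to Mir30a (6335 and 6963 CPM, distance 0.22) and Mir130a to Mir30e (3589 and 3944 CPM, distance 0.11). The uniquely placed reads of Mir30c-2 were closest to those of Mir425 (632 and 656 CPM, distance 0.070) and those of Mir30c-1 to Mir210 (358 and 430.2 CPM, distance 0.11). Mir467e was nearest to Mir30b, with 183 and 233 CPM and a distance of 0.11.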

How the data were processed

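The submitters' readme files give the provenance of the deposited counts: the build was mm10 and the annotation GENCODE M21. No source used here names the trimming, the aligner or the counter. The deposited tables hold raw, not normalized read counts per gene in 3 columns without a header. Their equal totals, and ambiguous reads in the unstranded column alone, show them to be unstranded, own-strand and opposite-strand counts. The own-strand column was used unless strand is named, and 4 summary lines (13.4% and 13.3% of all reads unmapped, 4.33% and 4.30% outside microRNA genes, and those mapped to several places) stayed out of totals.

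CPM used all gene rows. Library differences were tested, for genes that reached 10 reads in sum, with a two-sided exact binomial test (smaller tail doubled, null share from total counts) with Benjamini-Hochberg adjustment at 0.05, after tests on simulated data; log2 differences had 0.5 reads added. The binomial p-values set the differences against counting error alone and measure no spread between libraries. The simulated data likewise held only counting error and planted differences, so they do not test the calls under a spread between libraries. Since nothing says how separate the replicates were, technical and biological differences cannot be told apart. Positions are from GENCODE M21 (mm10) and sequences from RefSeq (GRCm38.p6, the same assembly). Named were all members, same-seed genes, the fibrosis list and the nearest gene per detected member. Members and lists were chosen with earlier results of these data known. Tools were Python 3.11.15, pandas 2.3.3, numpy 2.4.6, scipy 1.17.1, matplotlib 3.10.9, R 4.3.3, edgeR 4.0.16 and DESeq2 1.42.0; alternatives included TMM, DESeq2 size factors, other filters, the unstranded column and a fixed coefficient of variation of 0.1.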

Additional observations from a re-analysis of the deposited data

Results flagged for a closer look

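The opposite-strand column, which enters no level, held 17465 reads in replicate 1 and 11974 reads in replicate 2 under Mir30f, above the limit of 3 reads. The same numbers were counted for Mir30e on its own strand over the same interval, and the own-strand count of Mir30f was 0 in both libraries.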

How the results depend on the processing

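The family's share of 3.02% became 3.63% with the unstranded column, 1.26% with all reads as denominator and 3.70% without the most abundant gene, Mir378a, in the denominator; without 1 of the replicates it lay between 2.98% and 3.06%. With the unstranded column 2 of the 7 genes kept their place in the order, since Mir30e then had 0 reads, and its ratio to Mir30c-1 could not be computed. Without 1 of the replicates the order was the same, and the log2 ratios of the pairs lay between 6.34 and 6.70, 3.46 and 3.60, and 3.11 and 3.22. The log2 difference of Mir30d turned to -0.13 with TMM, -0.0017 with TMM over all gene rows (added after seeing the data, as was scaling by length), -0.045 with DESeq2 size factors and -0.037 with the unstranded column. With TMM, DESeq2 size factors and the unstranded column Mir30a was also called lower, at -0.14, -0.052 and -0.043. The count of all genes past 1.5-fold, 188, became 445 with no filter and 93 with at least 100 reads in sum, which tested 723 and 263 genes. At a biological coefficient of variation of 0.1 the 4 miR-30 calls became 0, and the 240 calls over all genes 124. Other counts of calls stayed within 1.5 times. No paired analysis was possible because there is 1 group. Depth limits Mir30f and Mir384, whose levels lie at or near a few reads.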
